A study of Mus musculus with 435 samples.

Results

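The 116 genes described here are the chemokines, interleukins and tumour necrosis factor (TNF) family genes of the liver table, with their receptors. A gene was taken as a member when its annotated symbol begins with Ccl, Ccr, Cxcl, Cxcr or Il and a digit, or with Tnf. They are 116 of the 13379 genes that the table names through a probe set of a single symbol, and each is read by 1 probe set. By role they are 17 CC chemokine ligands, 4 CXC ligands, and 9 CC and 5 CXC chemokine receptors. Another 25 are interleukins and soluble antagonists and 28 are interleukin receptor chains. The rest are 5 TNF superfamily ligands, 16 TNF receptor superfamily members, 6 Tnfaip genes, grouped by symbol alone, and 1 other TNF-named gene. Cxcl1, Cxcl10, Il6 and Il10 are among the members of these families that were not analysed here.

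Livers came from 435 F2 mice homozygous for the db mutation of the leptin receptor (db/db). Every group carries that mutation and there is no lean control among the arrays. The F2 mice descend from DBA/2J females and C57BL/6 males heterozygous for db, through an intercross of the F1 mice, and were kept on chow. Snap-frozen liver samples gave total RNA for 1 Affymetrix array a mouse, of 118 females aged 5 weeks, 110 females aged 12 weeks, 101 younger males and 106 older ones. Each F2 mouse carries its own mix of the parental genomes, so the spread within a group holds genetic as well as other variation. Levels are log2 values after robust multi-array averaging (RMA), on which a difference of 1 is a doubling of the signal, and levels of different genes are not compared because each probe set responds differently.

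Chemokines are small secreted proteins that guide leukocytes through receptors coupled to G proteins. Interleukins signal between leukocytes and to tissue cells, many of them through paired receptor chains that activate JAK kinases and STAT factors. TNF and its relatives bind trimeric receptors that lead to the transcription factor NF-kB or to cell death. In the liver the resident macrophages (Kupffer cells) are a main source of these proteins, and hepatocytes carry many of their receptors and answer interleukin-6 with acute phase proteins.

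RefSeq's promoter table (build GRCm38.p6, 250 bases before to 50 after each gene's start) holds 88 of the 116 members and 27025 genes in all. A match to the NF-kB consensus, searched on both strands, lies in the window of 12 of those members (13.6%) and of 5.14% of all genes. The windows of Tnfaip3, which rose from 5 to 12 weeks, and Ccl9, which fell, are printed because both hold such a match, with the matching letters in capitals. Tnfaip3 is on chromosome 10 at chr10:19015361-19015660, minus strand, with matches that begin at positions -125 and -12 from the start. The table holds a second start of Tnfaip3, at chr10:19011914-19012213, minus strand, whose window has 0 matches. Ccl9 is on chromosome 11 at chr11:83578587-83578886, minus strand, with a match that begins at -35.
Tnfaip3: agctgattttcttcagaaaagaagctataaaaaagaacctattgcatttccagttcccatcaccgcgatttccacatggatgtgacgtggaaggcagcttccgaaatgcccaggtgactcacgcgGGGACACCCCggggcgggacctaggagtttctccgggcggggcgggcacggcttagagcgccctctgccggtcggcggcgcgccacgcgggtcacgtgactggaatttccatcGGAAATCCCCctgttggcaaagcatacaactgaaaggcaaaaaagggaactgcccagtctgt
Ccl9: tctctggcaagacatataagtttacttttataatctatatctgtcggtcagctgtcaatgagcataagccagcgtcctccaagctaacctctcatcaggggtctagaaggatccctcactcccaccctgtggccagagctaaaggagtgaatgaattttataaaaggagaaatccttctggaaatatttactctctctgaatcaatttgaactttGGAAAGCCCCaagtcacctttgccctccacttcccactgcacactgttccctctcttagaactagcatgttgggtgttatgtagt
Of the 12 members with a match, 5 passed the age test in at least 1 sex, and of all 88 members with a window 41 did. The TATA motif TATAAA was in the window of 19 members (21.6%) and 15.7% of all genes, on either strand. A match says only that these letters are present.

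As a check of the tissue, the mean of 9 hepatocyte markers lay between 12.88 and 13.37 in all 435 livers, and the mean of 16 macrophage markers between 7.58 and 9.07. Array medians ran from 5.56 to 5.70. The array names carry a code with 6 values, taken as a batch: batches 1 to 4 hold 99, 138, 110 and 86 arrays of all 4 groups, and the other 2 hold 1 array each. A second code in the names, with 25 values, is called the plate here; the labels do not say what either code marks. In 8 arrays the X-linked gene Eif2s3x lay nearer to the median of the other sex. The counts of members called in each comparison below were also made without them. Counts by role, and counts of genes in the pathway and marker lists, were made with all arrays only. Dim probe sets are common: 52 members (44.8%) had a mean above 5.38, the 95th percentile of 31 olfactory and vomeronasal receptor genes, against 58.1% of all genes. The 64 members at or below that level include Il12rb1, Tnfsf10, Cxcl14, Il15, Tnfrsf23, Cxcr2, Cxcr4, Cxcr5 and Cxcr6. A signal at this level may be largely background, so the size of any change in RNA of these genes is uncertain. The x_at and s_at probe sets of Tnfaip2, Tnfrsf12a, Ccl6 and Cxcl16 can also read related transcripts, so those values are uncertain as to the gene.

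Between mice of a group the typical member varied as much as the typical gene, with a median SD of 0.182 against 0.179 over all genes. Batch means were not removed for this SD, so it also holds differences between batches. Receptor chains were at the top of that spread. Il6ra, the ligand-binding chain of the interleukin-6 receptor, had an SD of 0.537, higher than 99.5% of all genes. It was followed by Il22ra1, a receptor chain for interleukin-22 found on epithelial cells and hepatocytes (0.447), Tnfrsf19 (0.441), Tnfrsf14, the receptor for the TNF ligand LIGHT (0.437), and Il1r1, the signalling receptor for interleukin-1 (0.436). Il6ra ran from 6.30 to 8.70 in 5-week females, and the other 3 groups spanned as much.

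From 5 to 12 weeks 29 members moved the same way in both sexes and none moved in opposite directions. In females 25 members were higher and 20 lower at 12 weeks. In males 15 were higher and 20 lower. Of all 13379 genes 22.1% were higher and 24.2% lower in females, and 22.3% and 24.0% in males, so the members changed no more often than genes in general, and in males the higher share was 12.9%. The 15 genes lower in both sexes are 75.0% of each sex's list, and the 14 higher in both are 56.0% of the females' and 93.3% of the males' list. The same overlap over all genes was not measured, so it is not known whether the members differ from other genes in it. Differences were small: no called member reached 1.5-fold in either sex. All adjusted p-values are from limma fitted across all genes with the batch as a term, with Benjamini-Hochberg adjustment.

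**Figure D1:**
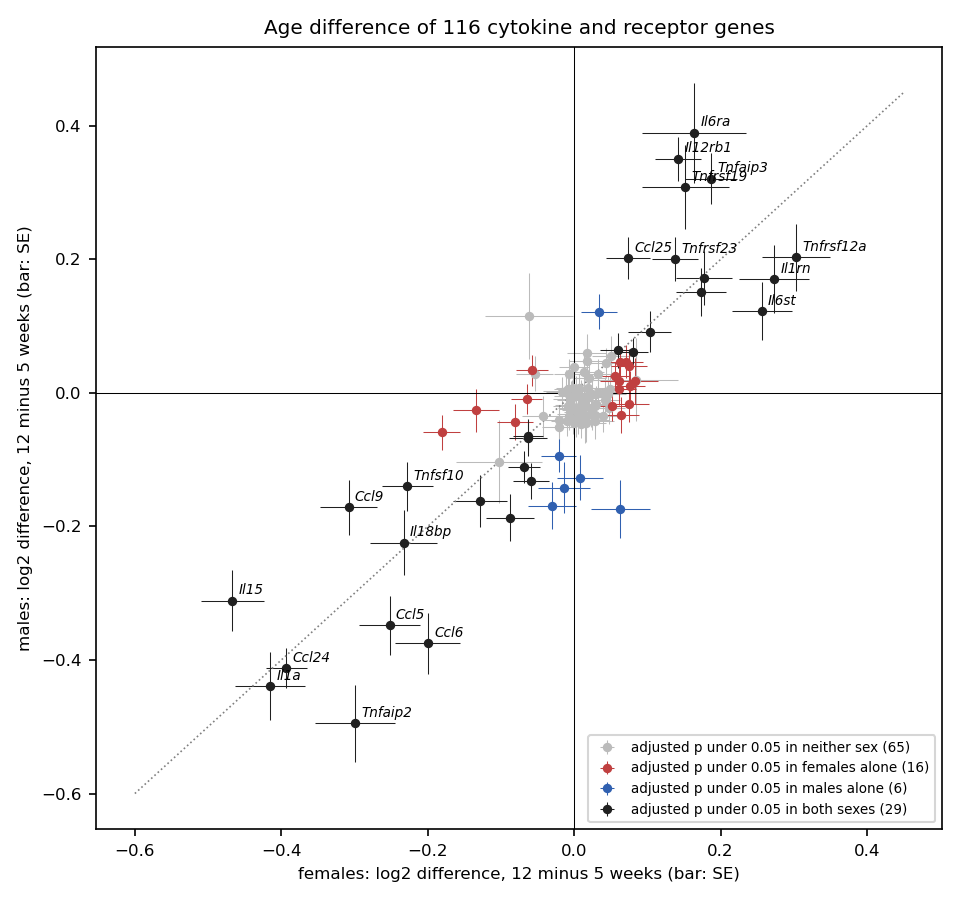
Each point is 1 of the 116 genes, with its log2 difference between 12 and 5 weeks in females (horizontal axis) and males (vertical axis), bars giving the SE. The 29 genes that passed in both sexes (black) lie to the lower left and upper right of zero. Tnfaip2, Il1a and Ccl24 are farthest down and Il15 is farthest left.

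Of the 17 CC ligands 4 were higher and 5 lower with age in females, and 1 and 4 in males. Those of the largest size fell. Ccl24, which attracts eosinophils, ran from 6.27 to 7.29 (median 6.79) in 5-week females and from 5.82 to 6.73 (median 6.35) in 12-week females. In males it went from 5.84 to 7.26 (median 6.74) at 5 weeks to 5.55 to 6.74 (median 6.28) at 12 weeks. The groups overlap, but no 12-week liver exceeded the 5-week median of its sex. Ccl24 fell by 0.39 ± 0.028 (SE) in females (1.31-fold, adjusted p = 7.29e-35) and by 0.41 ± 0.030 in males (1.33-fold, adjusted p = 4.28e-34). Within single batches its difference lay between -0.50 and -0.31.

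Ccl5, a ligand that draws T cells and monocytes, went from a median of 5.85 (5.13 to 6.72) to 5.60 (4.98 to 7.74) in females and from 5.74 (5.28 to 6.62) to 5.38 (4.58 to 7.55) in males. The highest value of each 12-week group belongs to 1 mouse far above the rest. Ccl5 fell by 0.25 ± 0.042 in females (adjusted p = 2.27e-08) and by 0.35 ± 0.044 in males (adjusted p = 4.20e-13), although in batch 4 the female difference was -0.02. Ccl9 and Ccl6 are CC chemokines of myeloid cells that lie beside each other in the mouse genome. Ccl9, whose levels ran from 9.78 to 12.24, fell by 0.31 ± 0.039 in females (adjusted p = 1.52e-13) and by 0.17 ± 0.041 in males (adjusted p = 0.00015). In batch 3 the male difference of Ccl9 was 0.00. Ccl6 fell by 0.20 ± 0.044 in females (adjusted p = 2.67e-05) and by 0.38 ± 0.046 in males (adjusted p = 8.75e-14).

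Other ligands rose or showed no difference past the threshold. Ccl25, known for homing T cells to the gut and thymus, rose by 0.07 ± 0.030 in females (adjusted p = 0.0333) and 0.20 ± 0.032 in males (adjusted p = 5.12e-09). Cxcl14, a ligand of epithelial tissues, rose by 0.17 ± 0.034 and 0.15 ± 0.036. Ccl2, the main attractant of monocytes, differed by 0.05 ± 0.027 in females (adjusted p = 0.119) and 0.06 ± 0.029 in males (adjusted p = 0.101). Its receptor Ccr2, which is dim on these arrays, differed by 0.01 ± 0.027 and -0.01 ± 0.029. Cxcl12, which retains blood progenitors and lymphocytes in tissues, differed by -0.02 ± 0.021 and -0.04 ± 0.022. Among the chemokine receptors Ccr6, a receptor for Ccl20, rose in both sexes (0.10 ± 0.029 and 0.09 ± 0.031) and Cxcr3, the receptor for interferon-induced ligands, fell in both (by 0.06 ± 0.020 and 0.06 ± 0.022). Cxcr4, the receptor of Cxcl12, rose by 0.06 ± 0.025 in females (adjusted p = 0.0285, and 0.226 without batch 4).

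**Figure D2:**
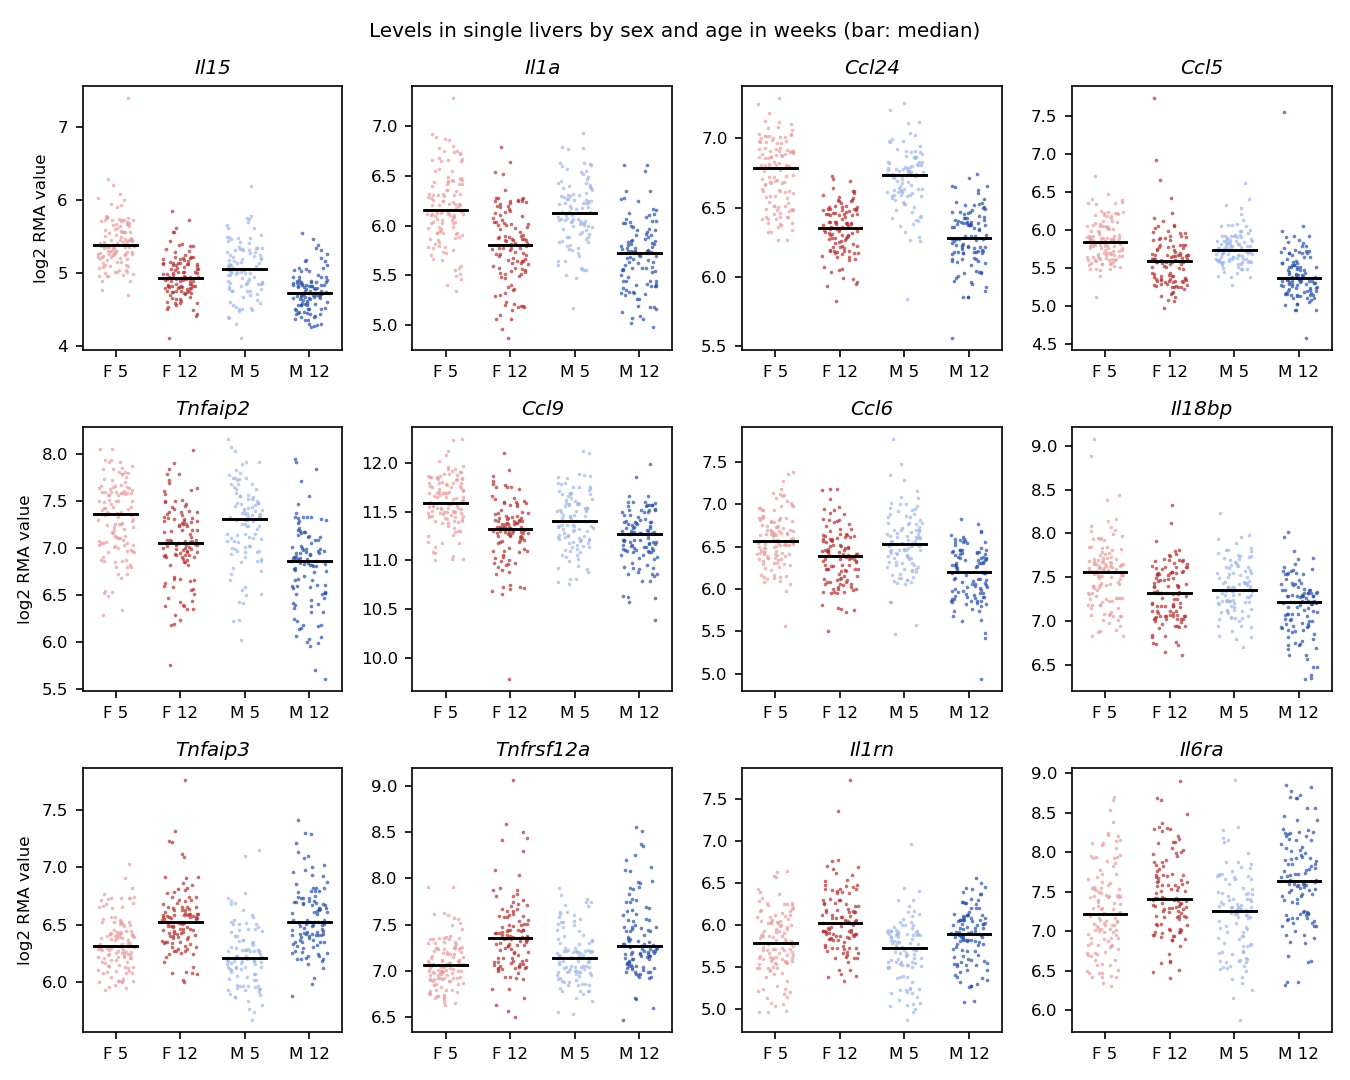
Log2 RMA values of 12 members in every liver, by sex (F, M) and age in weeks, with a black bar at the median. Il15, Il1a, Ccl24, Ccl5, Tnfaip2, Ccl9, Ccl6 and Il18bp have lower medians at 12 weeks in both sexes and the other 4 genes higher ones, with overlapping groups throughout; single livers stand apart in Ccl5 (7.74 and 7.55) and Il15 (7.39).

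Among the interleukins Il15 and Il1a had the largest falls. Il15 sustains natural killer and memory T cells. Its median went from 5.37 (4.70 to 7.39) to 4.93 (4.10 to 5.85) in females and from 5.05 (4.11 to 6.18) to 4.73 (4.26 to 5.54) in males, so the 5-week males already lay below the 5-week females. Il15 fell by 0.47 ± 0.043 in females (1.38-fold, adjusted p = 8.22e-23) and by 0.31 ± 0.046 in males (1.24-fold, adjusted p = 3.67e-10). Il1a, an interleukin-1 released from damaged cells, went from a median of 6.15 (5.34 to 7.28) to 5.81 (4.87 to 6.79) in females. In males its median went from 6.13 (5.17 to 6.93) to 5.73 (4.98 to 6.61). Il1a fell by 0.41 ± 0.048 and by 0.44 ± 0.051 (adjusted p = 2.13e-15 and 2.67e-15), and in every batch and sex the difference was at least 0.24 in size.

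The rest of the interleukin-1 family was mixed. Il1rn, the receptor antagonist that blocks interleukin-1, rose from a median of 5.78 to 6.02 in females (0.27 ± 0.048, adjusted p = 1.75e-07) and from 5.73 to 5.90 in males (0.17 ± 0.051, adjusted p = 0.00285, and 0.100 without batch 2). Il1b differed by -0.03 ± 0.033 in females (adjusted p = 0.489) and fell by 0.17 ± 0.035 in males (adjusted p = 7.48e-06). Il18, which drives interferon-gamma production, fell by 0.18 ± 0.025 in females and differed by -0.06 ± 0.026 in males (adjusted p = 1.56e-11 and 0.0557). Its secreted decoy receptor Il18bp fell by 0.23 ± 0.046 and by 0.22 ± 0.048 (adjusted p = 2.27e-06 and 2.11e-05). Il33, an alarmin of endothelial and stellate cells, fell by 0.13 ± 0.037 and by 0.16 ± 0.039. Its female adjusted p was 0.00163, and 0.125 without batch 3. Il1r1 differed by 0.08 ± 0.058 and 0.02 ± 0.062.

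Of the interleukin receptor chains 4 were higher and 4 lower with age in females, 3 and 3 in males, out of 28. Il6st is the chain through which the whole interleukin-6 family signals. It rose from a median of 8.47 to 8.78 in females (0.26 ± 0.041, adjusted p = 4.81e-09) and from 8.55 to 8.68 in males (0.12 ± 0.043, adjusted p = 0.0116). The male call was lost without batch 2 (adjusted p = 0.152) or batch 3 (adjusted p = 0.105), and within batch 1 the male difference was -0.10. Il6ra rose by 0.39 ± 0.075 in males (adjusted p = 1.88e-06), from a median of 7.26 to 7.64. In females the same gene was at the threshold, 0.16 ± 0.071 (adjusted p = 0.0471), and the call was lost without batch 3 (adjusted p = 0.457), without batch 4 (0.135), without the 8 arrays nearer to the other sex (0.0616) and with the assumed plate as a random block (0.0611). Il12rb1, the chain shared by the receptors of interleukin-12 and interleukin-23, rose by 0.14 ± 0.031 in females and 0.35 ± 0.033 in males (adjusted p = 3.37e-05 and 1.04e-21).

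Of the 16 TNF receptor superfamily members 5 were higher and 2 lower with age in females, and 4 and 1 in males. Tnfrsf12a is the receptor of the injury cytokine TWEAK. Its median went from 7.07 (6.64 to 7.91) to 7.36 (6.5 to 9.06) in females and from 7.15 (6.53 to 7.89) to 7.27 (6.47 to 8.56) in males. The groups overlap, and both 12-week groups reach higher at the top. Tnfrsf12a rose by 0.30 ± 0.047 and 0.20 ± 0.050 (adjusted p = 1.78e-09 and 0.000196). Tnfrsf1b, the second TNF receptor, found on leukocytes and endothelium, rose by 0.18 ± 0.038 and 0.17 ± 0.040. Tnfrsf1a, the receptor through which most cells answer TNF, fell by 0.06 ± 0.021 in females and differed by -0.01 ± 0.022 in males. Tnfrsf23, a decoy receptor for the death ligand TRAIL, rose by 0.14 ± 0.031 and 0.20 ± 0.033. Tnfrsf19 rose by 0.31 ± 0.063 in males. In females its rise of 0.15 ± 0.059 (adjusted p = 0.026) was not called without batch 1, 2 or 4 (adjusted p = 0.139, 0.147 and 0.069).

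The ligand Tnfsf10, which is TRAIL itself, fell by 0.23 ± 0.035 in females and by 0.14 ± 0.037 in males (adjusted p = 1.90e-09 and 0.000667). Tnf rose by 0.08 ± 0.021 in females (adjusted p = 0.000577) and by 0.06 ± 0.022 in males (adjusted p = 0.0153, not called without batch 3 or 4 or without the batch term, at 0.094, 0.0517 and 0.153). Both changes are far smaller than the SD of 0.15 to 0.18 between mice.

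Of the 6 Tnfaip genes 1 was higher and 2 lower in females, and 2 and 4 in males. Tnfaip3, an enzyme that edits ubiquitin and dampens NF-kB signalling, went from a median of 6.32 (5.93 to 7.02) to 6.52 (6.00 to 7.76) in females and from 6.21 (5.67 to 7.15) to 6.52 (5.88 to 7.41) in males. It rose by 0.19 ± 0.035 and 0.32 ± 0.038 (adjusted p = 1.11e-06 and 3.71e-15). Tnfaip2 went from 7.36 (6.29 to 8.05) to 7.05 (5.76 to 8.05) in females and from 7.32 (6.03 to 8.16) to 6.86 (5.61 to 7.95) in males, the largest fall of any member in males. It fell by 0.30 ± 0.055 and by 0.50 ± 0.058 (1.41-fold, adjusted p = 5.77e-15). Tnfaip8 fell by 0.09 ± 0.033 and by 0.19 ± 0.035, and Tnfaip8l1 fell in males by 0.17 ± 0.043 (adjusted p = 0.000231, and 0.164 without batch 2).

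**Figure D3:**
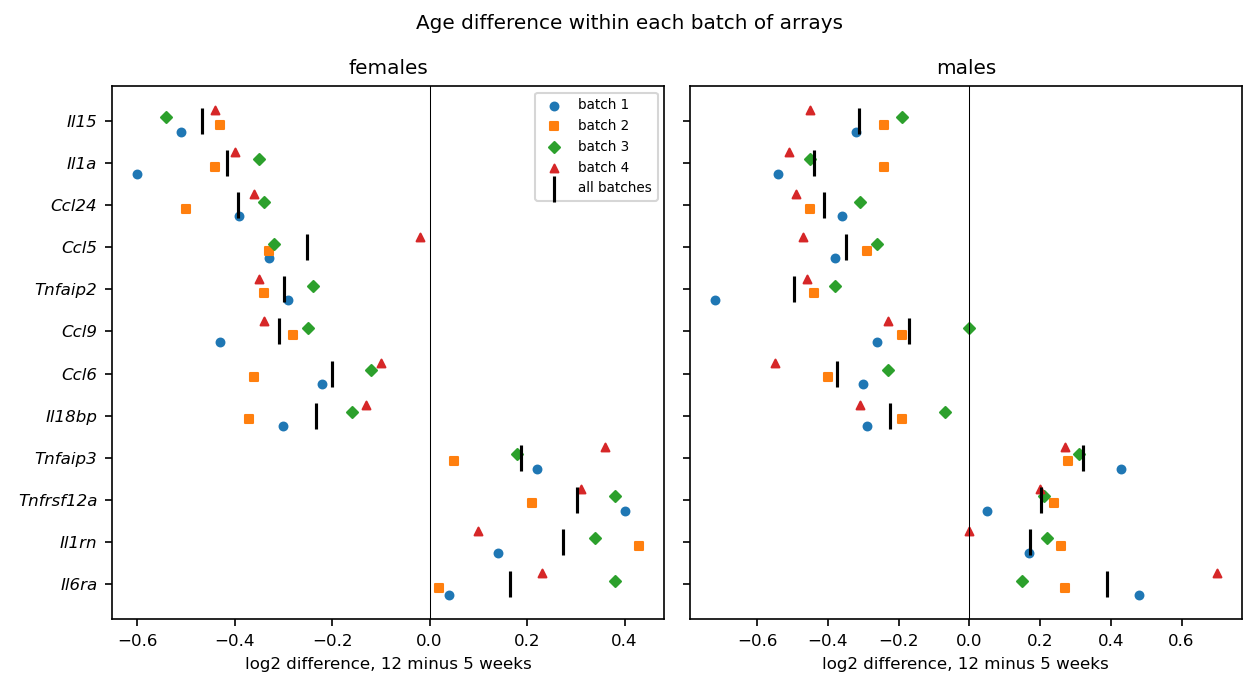
Log2 difference between 12 and 5 weeks of 12 members within each of batches 1 to 4 (coloured symbols) and over all batches (black bar), in females and males. All 4 batches lie on 1 side of zero for most genes. At or near zero in females are Ccl5 in batch 4 (-0.02), Il6ra in batches 1 and 2 (0.04 and 0.02) and Tnfaip3 in batch 2 (0.05). In males they are Ccl9 in batch 3 (0.00) and Il1rn in batch 4 (0.00).

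Within single batches the sign of most called members was kept. In females 42, 42, 44 and 38 of the 45 called members had the same sign in batches 1 to 4, and in males 32, 35, 35 and 35 of 35. Without dim genes the females' higher calls were 13 instead of 25, as dim members were then not tested. Without the batch term the males' lower calls were 33 instead of 20.

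Genes downstream of these receptors also moved in both directions. With age 22.1% of all genes rose and 24.2% fell in females, and 22.3% and 24.0% in males. A list with counts near these shares moved no more often than genes in general. Of 27 measured NF-kB pathway genes 7 rose and 7 fell with age in females, and 4 and 7 in males, with medians of 0.025 and 0.018 against 0.003 and -0.004 over all genes. Irak1, a kinase below the interleukin-1 receptor, rose by 0.31 ± 0.018 and 0.35 ± 0.019 and Bcl3, an atypical partner of NF-kB, by 0.19 ± 0.046 and 0.23 ± 0.049, while Nfkbiz, a related protein that is itself induced by interleukin-1, fell by 0.29 ± 0.051 and by 0.27 ± 0.054. Of 31 JAK-STAT genes 6 rose and 11 fell in females, and 6 and 9 in males. Lifr, the partner of Il6st for leukemia inhibitory factor, fell by 0.70 ± 0.053 and by 0.78 ± 0.056. Osmr, its partner for oncostatin M, rose by 0.34 ± 0.042 and 0.22 ± 0.044. Cish, a feedback inhibitor induced by STAT5 factors, fell by 0.27 ± 0.033 and by 0.42 ± 0.035. Of 20 acute phase genes 5 rose and 6 fell in females, and 3 and 10 in males, so that more fell than rose. Orm3 went against that majority, up by 1.05 ± 0.083 in males and by 0.22 ± 0.078 in females. Of 7 atypical chemokine receptors and related genes 1 rose and 3 fell in each sex. Ackr2, which removes inflammatory CC chemokines, fell by 0.18 ± 0.030 and by 0.19 ± 0.031, and Gpr182 fell in males by 0.28 ± 0.042.

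Markers of the cell types of the liver were compared over the same interval. Of all genes 24.2% fell in females and 24.0% in males, and 22.1% and 22.3% rose. Of 16 macrophage markers 11 were lower and none higher at 12 weeks in females, and 15 lower and none higher in males, with medians of -0.179 and -0.232. Their mean went from a median of 8.37 (7.98 to 9.07) to 8.20 (7.70 to 8.71) in females and from 8.28 (7.97 to 8.78) to 8.02 (7.58 to 8.74) in males. Timd4, a marker of resident Kupffer cells, fell by 0.45 ± 0.047 and by 0.49 ± 0.050, and C1qa by 0.28 ± 0.038 and by 0.42 ± 0.041. Of 13 lymphocyte markers 5 were lower and 1 higher in females, and 7 lower in males; of 8 neutrophil markers 3 were lower and 1 higher, and then 6 lower. Retn, the 1 measured adipocyte marker, rose by 0.46 ± 0.042 and 0.24 ± 0.045. Of 9 hepatocyte markers 6 were lower and 1 higher in each sex, and their mean had a median of 13.17 at 5 weeks and 13.06 at 12 weeks in females, with 13.15 and 13.04 for males. Of 4 cholangiocyte markers 3 were lower and 1 higher in females, and 3 lower in males. Of 11 endothelial markers 5 were lower and 1 higher in females, and 4 lower and 2 higher in males. Of 7 stellate markers 2 were lower and 2 higher in females, and 2 lower and 1 higher in males. In bulk liver, fewer cells of a type and less RNA per cell cannot be told apart, and the part of these markers in the falls of Ccl24, Ccl5, Ccl6, Il1a and Tnfaip2 was not tested.

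How far each member follows the macrophage markers from mouse to mouse was measured within groups and batches. A score of the 16 markers, read on the same arrays, was set against each gene. The slope, in log2 units for 1 SD of the score, was above zero for 25 members (21.6%) and below it for 5 (4.31%), against 12.6% and 8.58% of all genes. With each array centred on its median the counts were 24 and 11. Il18bp had the steepest slope, 0.228 ± 0.012 (adjusted p = 9.3e-57), followed by Ccl6 and Ccl5 (0.156 ± 0.014 and 0.156 ± 0.013), Cxcl16, the membrane-bound ligand of Cxcr6 (0.141 ± 0.009), Tnfaip8 (0.103 ± 0.011) and Tnfaip2 (0.100 ± 0.019). All 6 Tnfaip genes were among the 25. Il6ra went the other way, at -0.080 ± 0.025 (adjusted p = 0.0114, and 0.0995 without batch 4), as did Cxcl17 (-0.032 ± 0.009) and Tnfsf13os (-0.029 ± 0.010), which were not called without batch 4 either. The genes that fell most with age did not all follow the score: Il15 and Ccl9 were not called, and Il1a and Ccl24 had slopes of 0.071 ± 0.017 and 0.064 ± 0.010.

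**Figure D4:**
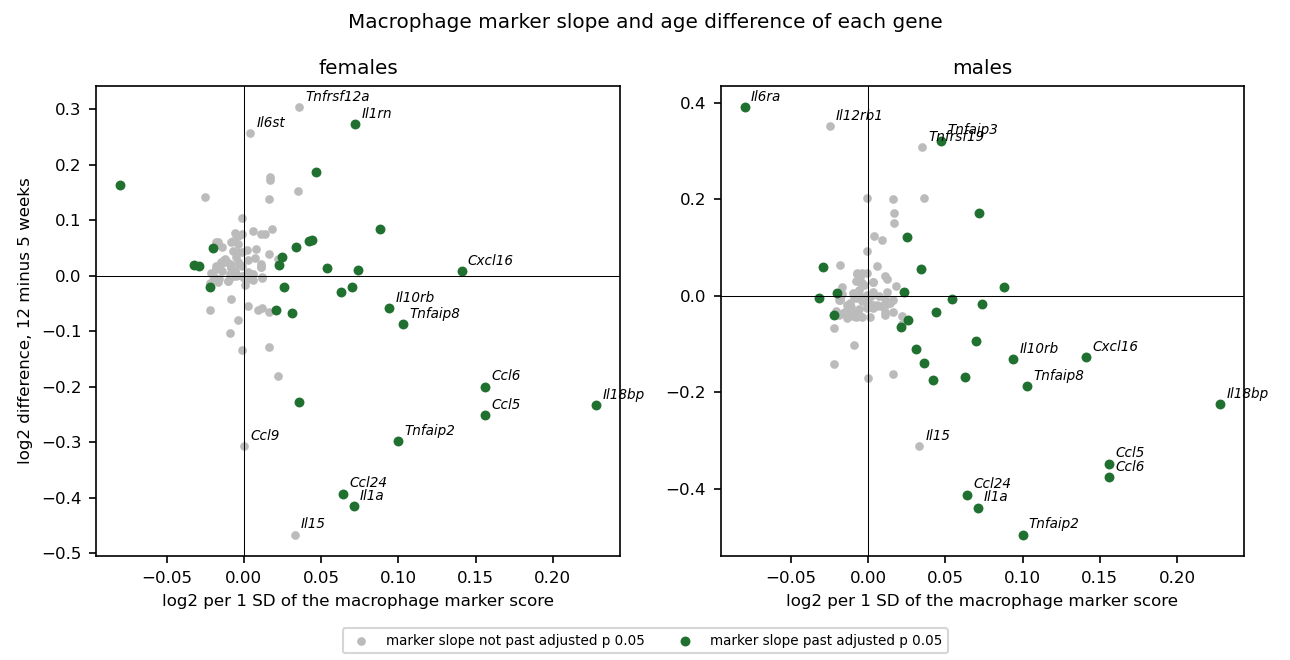
Each point is 1 of the 116 genes, with its slope on the macrophage marker score (log2 for 1 SD, horizontal axis) and its log2 difference between 12 and 5 weeks (vertical axis) in females and males; green points passed the slope test. Il18bp, Ccl6, Ccl5 and Tnfaip2 lie to the lower right, while Ccl9 and Il15 are low with slopes near zero and Cxcl16 has a steep slope and little age difference in females.

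On the lymphocyte score 74 members (63.8%) had a slope above zero and 10 (8.62%) below, beside 34.6% and 27.8% of all genes. On the neutrophil score the counts were 72 (62.1%) and 6 (5.17%), beside 33.3% and 27.0% of all genes. The median slope of the members was 0.028 on either score, against 0.003 over all genes. Both scores rest on markers of low level, with group medians of 4.71 to 4.83 and 5.11 to 5.34. Ccl5 had the steepest lymphocyte slope (0.142 ± 0.013), then Cxcr6, a receptor of liver T and natural killer cells (0.109 ± 0.012), and Il18bp (0.100 ± 0.016). On the neutrophil score Ccl5 (0.085 ± 0.015), Il18bp (0.071 ± 0.016) and Cxcl17 (0.065 ± 0.009) led. Il6ra was lower with both scores (-0.140 ± 0.025 and -0.113 ± 0.026). Il1r1 (-0.096 ± 0.021) and Tnfrsf12a (-0.074 ± 0.017) were lower with the lymphocyte score, and Ccl25 (-0.075 ± 0.011) and Il22ra1 (-0.053 ± 0.022, not called without batch 2) with the neutrophil score.

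Sex differences were tested as male minus female at each age. At 5 weeks 9 members were higher and 19 lower in males, where 10.5% and 14.4% of all genes were. At 12 weeks 4 were higher and 23 lower in males, beside 8.97% and 9.08% of all genes, so that 3.45% and 19.8% of the members were called. Without batch 3 the 19 lower calls at 5 weeks were 9, and without batch 2 the 23 lower calls at 12 weeks were 14. At 12 weeks 14 of the 16 macrophage markers were also lower in males and none higher, with a median of -0.186, and at 5 weeks 5 were lower. Their part in the members' sex difference was not tested.

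At 5 weeks Il15 differed most between the sexes. It was lower in males by 0.37 ± 0.043 (that is, -0.37, 1.29-fold, adjusted p = 4.71e-14), and at 12 weeks the difference was -0.21 ± 0.044 (adjusted p = 3.83e-05, and 0.0506 without batch 2). Il1r1 was higher in males at both ages, by 0.28 ± 0.058 at 5 weeks and 0.22 ± 0.059 at 12 weeks (adjusted p = 3.92e-05 and 0.00308). Its values ran from 7.29 to 9.16 in 5-week females and from 7.67 to 10.45 in 5-week males, and the call at 12 weeks was lost without batch 2 (0.115, adjusted p = 0.405). At 5 weeks males were also lower in Il22ra1 (-0.21 ± 0.061), Ccl9 (-0.20 ± 0.039), Il18 (-0.15 ± 0.025) and Cxcr6 (-0.15 ± 0.036). Il18bp, at -0.16 ± 0.046, was not called without batch 2 or 3 (adjusted p = 0.0728 and 0.0745). Higher in males beside Il1r1 were Tnfrsf10b, the mouse death receptor for TRAIL (0.11 ± 0.027), Ccl25 (0.10 ± 0.030), Il1f10 (0.09 ± 0.019), Ccl7 (0.08 ± 0.027) and Il3ra (0.07 ± 0.025). Of these Ccl25 was not called without batch 3, Ccl7 without batch 1 and Il3ra without batch 1 or 2.

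At 12 weeks 4 of the 5 CXC chemokine receptors and 3 of the 6 Tnfaip genes were lower in males. Of the 5 CXC receptors only Cxcr3 has a mean (5.55) above the dim level of 5.38. Tnfaip2 was at -0.24 ± 0.056 (adjusted p = 0.000433), Ccl6 at -0.23 ± 0.044 (adjusted p = 8.13e-06), Ccl5 at -0.20 ± 0.042 and Cxcr6 at -0.18 ± 0.036. Il1rn was at -0.19 ± 0.049 (adjusted p = 0.00189, and 0.0569 without batch 2). The 4 genes higher in males at that age were Ccl25 (0.22 ± 0.031, adjusted p = 1.27e-10), Il12rb1 (0.22 ± 0.032, adjusted p = 1.18e-09), Il1r1 and Il20ra (0.07 ± 0.020).

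Whether the age change differed between the sexes was tested as an interaction, the males' change minus the females'. It was called for 7 members, 4 above and 3 below zero, beside 5.74% and 2.82% of all genes. Quantile normalization between arrays gave 3 and 5. Il12rb1 rose more in males (0.21 ± 0.045, adjusted p = 0.000329), with a median that went from 4.19 to 4.52 in males and from 4.19 to 4.32 in females. Tnfaip8l1 differed the other way (-0.24 ± 0.057, adjusted p = 0.002, and 0.0541 without batch 2), as it fell by 0.17 ± 0.043 in males and differed by 0.06 ± 0.040 in females. Without batch 1 the counts were 1 and 1. The other 5, Il1b, Cxcl16, Ccl25, Il18 and Ccl8, each lost the call without at least 1 batch.

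The traits of each mouse allow a second kind of comparison, across mice of 1 age. Each trait was scaled to its SD within sex and age, after log2 for all but body fat, and slopes are log2 units for 1 SD. At 12 weeks plasma glucose had a median of 460 mg/dl in females and 600 mg/dl in males, insulin of 128 and 61 µIU/ml, and the liver fat fraction of 0.203 and 0.226. At 5 weeks few members followed a trait: 6 followed glucose (8.12% of all genes did), 2 insulin (2.45%), 5 triglycerides (14.6%), 8 liver fat (5.60%) and 11 body fat (13.8%). At 12 weeks 11 followed triglycerides (19.6% of all genes) and 5 body fat (6.74%).

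Insulin at 12 weeks was followed by 19 members, 9 above and 10 below zero, beside 13.4% and 14.1% of all genes. Receptor chains of interleukins made up 6 of the 10 below zero and none of the 9 above. Il6ra was lower where insulin was higher (-0.212 ± 0.034, adjusted p = 4.58e-08), as were Il22ra1 (-0.163 ± 0.031, adjusted p = 5.14e-06), Il1r1 (-0.120 ± 0.031), Ccl25 (-0.118 ± 0.016), Tnfrsf1b (-0.112 ± 0.020) and Il12rb1 (-0.089 ± 0.018). Tnfrsf19 was higher (0.210 ± 0.029, adjusted p = 5.11e-10), as were Il1a (0.074 ± 0.024), Tnfrsf23 (0.072 ± 0.017), Ccr2 (0.064 ± 0.014), Ccl5 (0.063 ± 0.025) and Tnfrsf22, a second decoy receptor for TRAIL (0.062 ± 0.013). Without batch 2 the count was 10 instead of 19, and Tnfrsf23, Ccr2, Ccl5 and Tnfrsf22 were not called (adjusted p = 0.274, 0.117, 0.469 and 0.186). Il1a was not called without batch 3 (0.11). Macrophage markers moved too: 5 of 16 were higher and 1 lower with insulin, and 6 of 8 neutrophil markers were higher. Their part was not tested.

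Liver fat at 12 weeks was followed by 24 members, 12 above and 12 below zero, beside 13.0% of all genes in each direction. With each array centred on its median the counts were 12 and 19, and without batch 2 the count was 14 instead of 24. Tnfrsf19 had the steepest slope of any member on any trait, 0.251 ± 0.027 (adjusted p = 4.31e-15). Tnfrsf23 (0.128 ± 0.016, adjusted p = 2.04e-12), Il1rn (0.107 ± 0.022), Tnfrsf12a (0.099 ± 0.027), Tnfaip3 (0.084 ± 0.019) and Tnfrsf22 (0.067 ± 0.013) were higher in fatter livers as well. The monocyte pair Ccl2 and Ccr2, which showed no called age difference, were both higher (0.065 ± 0.016 and 0.062 ± 0.014, adjusted p = 0.000466 and 0.000129). Ccr2 is dim (mean 3.93), and the 2 livers far above the rest in Ccl2 are 12-week females that were part of this slope. Il6ra (-0.184 ± 0.034), Ccl25 (-0.110 ± 0.016), Tnfrsf14 (-0.091 ± 0.027), Il1r1 (-0.081 ± 0.032), Tnfrsf1b (-0.077 ± 0.020) and Il12rb1 (-0.077 ± 0.018) were lower. Tnfrsf22 and Tnfrsf1b were not called without batch 2 (adjusted p = 0.0833 and 0.161), nor Tnfrsf14 without batch 4 (0.198). The Il1r1 slope was not called when any 1 of batches 1 to 4 was left out, nor with body fat as a covariate. Of 16 macrophage markers 4 were higher and 1 lower with liver fat, and no lymphocyte marker was called. At 5 weeks liver fat was followed most steeply by Il22ra1 (0.169 ± 0.027, adjusted p = 1.18e-06), whose slope at 12 weeks was -0.079 ± 0.032 (adjusted p = 0.0576). Tnfrsf12a (0.088 ± 0.018) was also higher in fatter livers at 5 weeks, and Tnfrsf14 (-0.102 ± 0.031), Il15 (-0.074 ± 0.024) and Ccl9 (-0.065 ± 0.018) lower. Each of these last 3 was not called without at least 1 batch. Without batch 3 or 4 the count at 5 weeks was 4 instead of 8.

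**Figure D5:**
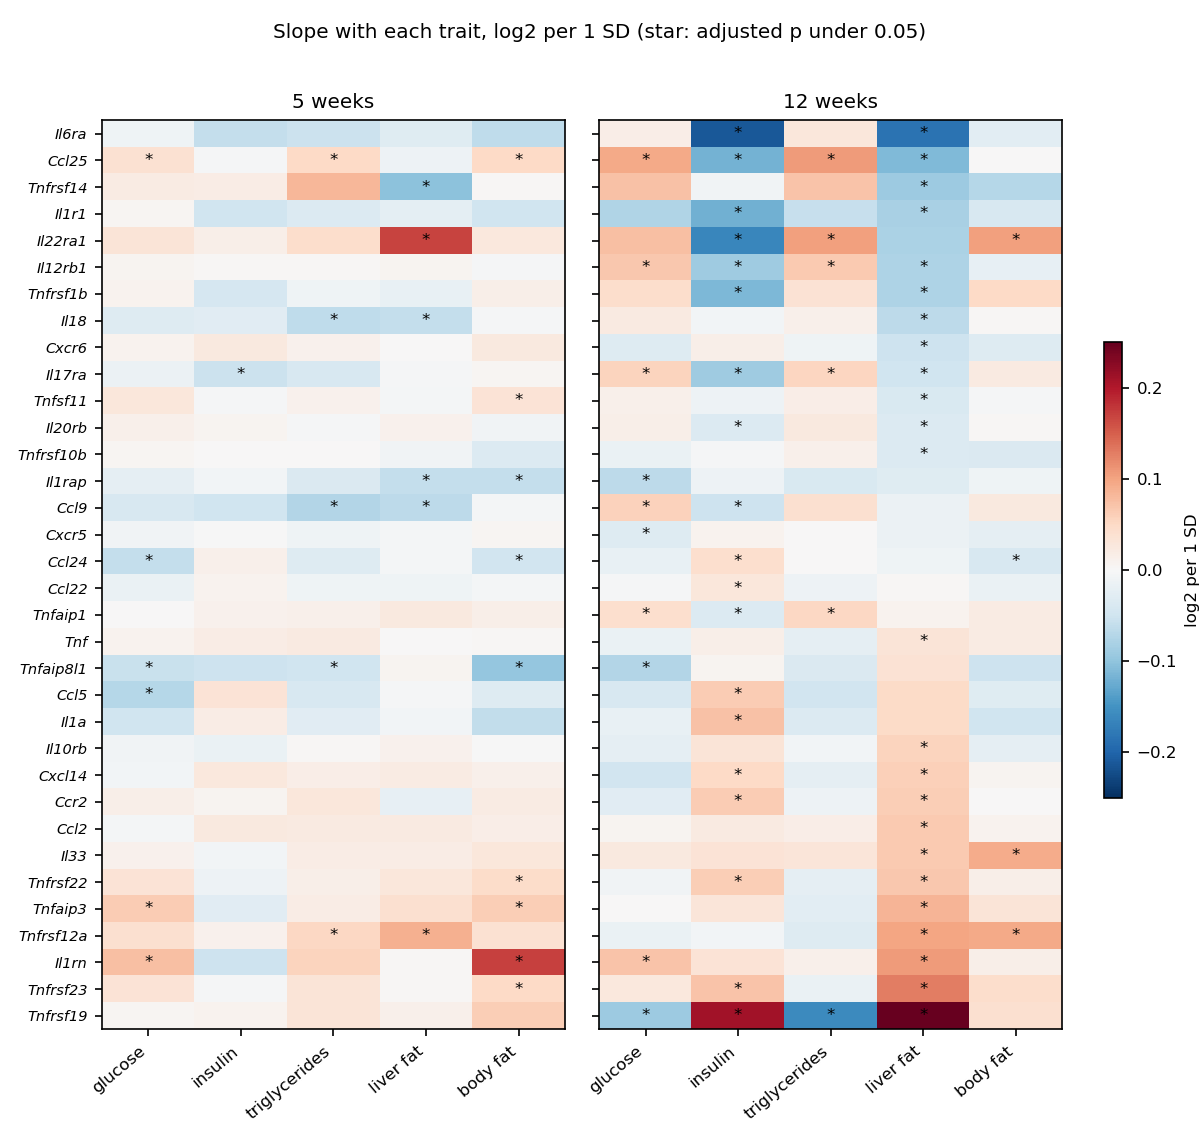
Slope of each gene (rows) with 5 traits (columns) at 5 and 12 weeks, in log2 units for 1 SD, for the members called with glucose, insulin or liver fat at 12 weeks; red is above zero, blue below, and a star marks adjusted p under 0.05. Tnfrsf19 and Il6ra have the deepest colours under insulin and liver fat at 12 weeks, with opposite signs, and Ccl25 changes sign between glucose (0.095) and insulin (-0.118).

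Glucose at 12 weeks was followed by 10 members, 6 above and 4 below zero, beside 7.41% and 5.50% of all genes. Ccl25 was highest (0.095 ± 0.017, adjusted p = 4.03e-06) and had the opposite sign with insulin. Il1rn (0.072 ± 0.023), Il12rb1 (0.068 ± 0.018), Ccl9 (0.057 ± 0.020), Il17ra, the receptor chain shared by interleukin-17 cytokines (0.056 ± 0.015), and Tnfaip1 (0.042 ± 0.013) were also above zero. Tnfrsf19 (-0.091 ± 0.032), Tnfaip8l1 (-0.074 ± 0.023), Il1rap, the accessory chain of the interleukin-1 receptor (-0.066 ± 0.019), and Cxcr5 (-0.032 ± 0.011) were below. The count was 2 instead of 10 without batch 2 and again without batch 3, and each of the 10 other than Ccl25 lost its call without at least 1 batch. With insulin as an added covariate the Tnfrsf19 slope was 0.004. The glucose slope differed between the ages for 4 members (6.58% of all genes).

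Of the remaining trait slopes, body fat at 5 weeks gave the steepest, with Il1rn at 0.170 ± 0.022 (adjusted p = 2.7e-10) and Tnfaip8l1 at -0.097 ± 0.015 (adjusted p = 1.82e-07). Without batch 3 the count with body fat was 3 instead of 11. Next were Il6st (0.061 ± 0.020), Tnfaip3 (0.061 ± 0.016), Il1rap (-0.059 ± 0.017) and Ccl24 (-0.047 ± 0.015), which were not called without batch 3. Glucose at 5 weeks was followed by Il1rn (0.076 ± 0.025), Ccl5 (-0.071 ± 0.017), Tnfaip3 (0.064 ± 0.016), Ccl24 (-0.059 ± 0.015), Tnfaip8l1 (-0.056 ± 0.017) and Ccl25 (0.039 ± 0.012), each not called without at least 1 batch, and the count was 2 instead of 6 without batch 4. With triglycerides at 5 weeks Ccl9 was at -0.074 ± 0.018, Il18 at -0.063 ± 0.012, Tnfrsf12a at 0.052 ± 0.018 and Tnfaip8l1 at -0.049 ± 0.016, and none of the 4 was called without batch 1. Ccl25 was at 0.050 ± 0.012. With insulin at 5 weeks the 2 members were Il17ra (-0.053 ± 0.015) and Il13ra2 (0.045 ± 0.013), neither called without batch 1, 3 or 4. With triglycerides at 12 weeks Tnfrsf19 was at -0.160 ± 0.030, Ccl25 at 0.106 ± 0.016 and Il22ra1 at 0.102 ± 0.032 (not called without batch 2 or 3), and the count was 4 instead of 11 without batch 2. Tnfaip2 (0.077 ± 0.029), Il15ra (-0.044 ± 0.015) and Ccl27a (-0.034 ± 0.013) followed it too, each not called without batch 1 or 2. Il33 followed body fat at 12 weeks (0.092 ± 0.019, adjusted p = 0.00038), as did Il22ra1 (0.103 ± 0.032), not called when any 1 of batches 1 to 4 was left out, and Tnfrsf12a (0.095 ± 0.028), not called without batch 3 or 4. Ccl24 (-0.040 ± 0.013) and Cxcr3 (-0.035 ± 0.010) were lower with body fat, and neither was called without batch 2 or 4. Without batch 4 the count with body fat was 1 instead of 5.

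Ligands, receptors and antagonists that act together were compared across 433 mice after group and batch means were removed. Of 13 measured pairs 6 passed (permutation test with 100000 resamples, two-sided, adjusted over the 13), and all correlations were weak. Ccl3 and Ccl4, which are neighbouring genes, had Pearson's r = 0.35 and Spearman's rho = 0.35 (each adjusted p = 6.5e-05, permutation p at the smallest that 100000 resamples can give). Without the 2 mice farthest from the median r was 0.34, and within batches 1 to 4 it was 0.15, 0.43, 0.31 and 0.47. Cxcl16 and Cxcr6 had r = 0.23 and rho = 0.20, and without 2 mice r = 0.24 (within batches 0.10, 0.36, 0.21 and 0.12). Ccl2 and Ccr2 had r = 0.19 and rho = 0.20, and without 2 mice r = 0.22 (0.18, 0.26, 0.17 and 0.11). Il1b and its antagonist Il1rn had r = 0.19 and rho = 0.19, and without 2 mice r = 0.19 (0.07, 0.28, 0.16 and 0.23). For Il18 and Il18bp r was 0.14 and rho 0.11 (permutation adjusted p = 0.00816 and 0.0403), and without 2 mice 0.13 (0.03, 0.13, 0.16 and 0.26).

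The 2 chains of the interleukin-6 receptor went weakly against each other. Il6ra and Il6st had r = -0.12 and rho = -0.13 (permutation adjusted p = 0.0248 and 0.0154), r = -0.13 without 2 mice, and -0.02, -0.11, -0.15 and -0.23 within batches 1 to 4. Il15 and Il15ra (r = 0.06), Il1r1 and Il1rap (0.06), Cxcl12 and Cxcr4 (-0.07), Il17ra and Il17rc (-0.05), Tnf and Tnfrsf1b (-0.06), Tnfrsf1a and Tnfrsf1b (0.09) and Tnfsf10 and Tnfrsf10b (0.03) did not pass. Genes of a pair share the array they are read on: over all 6670 pairs of members the median r was 0.04, with 95% between -0.17 and 0.26. Of the pairs that passed, only Ccl3 and Ccl4 (r = 0.35) lay outside that range. The share of all member pairs that would pass the same test was not measured.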

How the data were processed

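Liver RNA of 435 db/db F2 mice was read on Affymetrix arrays, 1 a mouse. The authors deposited log2 values made with RMA, per the submitters' processing notes; the sources read name no version of it. No value was missing, and the number of arrays in a group limits the precision. Of 15397 probe sets, 13516 have 1 gene symbol, 162 several and 1719 none; the highest mean stood for a gene, which left 13379 genes. The 1 probe set with several symbols that met the rule was left out. All 116 members matched RefSeq by gene ID.

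Groups (sex and age) came from the labels. limma 3.58.1 (R 4.3.3; lmFit, eBayes) was fitted to all genes with group and batch, or, for slopes, with trait, sex and batch within an age (marker scores: group and batch). Calls are at a Benjamini-Hochberg adjusted p under 0.05 over all genes. Pairs were tested in Python 3.11.15 with NumPy 2.4.6, leaving out the 2 arrays alone in their batch. The scripts were tested on simulated data. 1 liver fat value was missing, so that slope used 105 of the 106 males at 12 weeks. The labels name each mouse but no litter or family, so relatedness was not modelled.

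The text names, of the members called, the 10 of largest size in each direction for an age difference, 6 for sex, interaction and the glucose, insulin and liver fat slopes at 12 weeks, and 3 for other slopes, plus a fixed set of well-known members, and examples from the 3 largest in each direction of each other list. Members, lists and pairs were chosen with earlier results of these data known. Alternatives were: no batch term, the assumed plate code as a random block, other scaling, no dim genes, the probe set of highest SD, a trended robust fit, ranks of a trait, another trait as covariate, and leaving out the 8 discordant arrays or a batch.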

Additional observations from a re-analysis of the deposited data

Results flagged for a closer look

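The age change differed between the sexes, by the interaction test, for 7 members (log2, males' change minus females'). It was 0.208 for Il12rb1, 0.128 for Ccl25, 0.122 for Il18 and 0.092 for Ccl8. It was -0.236 for Tnfaip8l1, -0.140 for Il1b and -0.134 for Cxcl16. Within batches 1 to 4 the Il12rb1 value was 0.35, 0.12, 0.14 and 0.19, and that of Cxcl16 was -0.21, 0.12, -0.02 and -0.49. The Cxcl16 call was lost without batch 1 (adjusted p = 0.23) and without batch 4 (adjusted p = 0.656).

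The slope with plasma glucose differed between 12 and 5 weeks for 4 members (limma, log2 for 1 SD, 12 weeks minus 5 weeks). The difference was 0.104 for Ccl9, 0.070 for Il17ra, 0.055 for Il18 and -0.056 for Ccl27a. For Ccl9 the slope was -0.041 ± 0.019 at 5 weeks and 0.057 ± 0.020 at 12 weeks, and for Il17ra -0.015 ± 0.016 and 0.056 ± 0.015. Neither slope of Il18 (-0.032 ± 0.013 and 0.023 ± 0.012) or Ccl27a (0.028 ± 0.012 and -0.028 ± 0.013) passed at its own age. Without batch 2 the adjusted p-values (limma) were 0.198 for Ccl9, 0.102 for Il17ra, 0.0671 for Il18 and 0.258 for Ccl27a.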

How the results depend on the processing

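The alternatives were run for the called members and pairs that the text names, not for uncalled members or for genes of the marker and pathway lists. Each such value kept its direction under the alternatives run for it, except the glucose slope of Tnfrsf19 at 12 weeks, which went from -0.091 to 0.004 with insulin as a covariate. Of these comparisons with the reported value 1973 stayed on the same side of the threshold and 222 lost the call. The cause of the losses was not tested. The 1973 include the fit on the probe set of highest SD, which cannot change a member's values because each has 1 probe set. They also include the fit without dim genes, which leaves a brighter member's difference as it was. Counts of members called that moved by over 1.5 times were as follows. Without dim genes the counts were 13 instead of 25 (higher with age in females), 5 instead of 9 (higher in males at 5 weeks) and 2 instead of 4 (higher in males at 12 weeks), where fewer genes were tested. Without the batch term they were 33 instead of 20 (lower with age in males), 2 instead of 4 (interaction above zero), 12 instead of 6 (glucose at 5 weeks) and 9 instead of 5 (triglycerides at 5 weeks). Quantile normalization gave 5 instead of 3 interactions below zero. With ranks of the trait, 1 instead of 2 members followed insulin at 5 weeks and 8 instead of 5 body fat at 12 weeks, and with insulin as a covariate 6 instead of 10 followed glucose at 12 weeks.

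Leaving out 1 of batches 1 to 4 also leaves fewer mice. The counts then ran from 9 to 18 (lower in males at 5 weeks, 19 with all) and 14 to 23 (lower in males at 12 weeks, 23 with all). Interactions ran from 1 to 5 above zero and 1 to 4 below. At 5 weeks the counts ran from 2 to 4 for glucose, 0 to 2 for insulin, 3 to 7 for triglycerides, 4 to 6 for liver fat and 3 to 12 for body fat. At 12 weeks they ran from 2 to 8 for glucose, 10 to 18 for insulin, 4 to 11 for triglycerides, 14 to 24 for liver fat and 1 to 3 for body fat, and for the difference of the glucose slope from 0 to 5. No paired analysis was possible because each mouse is in 1 group and its number is its own. Dim probe sets limit what can be seen of 64 members.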

Other observations

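A few livers stand far above the rest in single ligands. Over 6 robust SD above the mean of their group and batch were 2 livers for Ccl2, 2 for Ccl5, 1 each for Ccl7, Il15 and Tnfsf10, and none for any other of the 116 members; they are 5 mice in all. A 12-week female was high in Ccl7 (5.84, against a median of 3.80 over all mice) and in Ccl2, whose highest value was 7.87 against a median of 6.12. A 5-week female was high in both Il15 (7.39, against its group's median of 5.37) and Tnfsf10 (6.51, against 4.77). These livers were singled out after their values were seen.

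Members that are neighbouring protein-coding genes in RefSeq form 26 pairs, a family chosen after the data were seen. Of these 12 passed across 433 mice (Pearson's r, permutation test, adjusted over the 26). The range of r given above for most of all 6670 member pairs was -0.17 to 0.26. Of the pairs that passed, only Ccl2 and Ccl7, Ccl3 and Ccl4, Tnfrsf4 and Tnfrsf18, and Tnfrsf22 and Tnfrsf23 lay outside that range. The share of all member pairs that would pass was not measured, so it is not known whether neighbours pass more often. Ccl2 and Ccl7 had r = 0.46 and rho = 0.26; without the 2 mice farthest from the median r was 0.31, and within batches 1 to 4 it was 0.19, 0.32, 0.68 and 0.46. Tnfrsf22 and Tnfrsf23, the decoy receptors, had r = 0.29 and rho = 0.28, r = 0.29 without 2 mice, and 0.20, 0.39, 0.28 and 0.21 within batches. Il1a and Il1b had r = 0.23 and rho = 0.16, r = 0.22 without 2 mice, and 0.20, 0.25, 0.37 and 0.12 within batches. Ccl9 and Ccl6, which both fell with age, had r = -0.07 and rho = -0.06 across mice (permutation adjusted p = 0.175 and 0.268). Among pairs of members of which both are dim the median r was 0.07 over 2016 pairs, and 0.00 over the 1326 pairs of brighter ones.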
